A study of Mus musculus with 12 samples.

Results

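The 44 genes named for sodium channels, calcium channels and HCN channels were examined in the brains of mice with a dopamine lesion and of control mice. They were taken by symbol from the count table (symbols that start with Scn and a digit, symbols that start with Cacn, and symbols of Hcn with a digit) and are 44 of 21872 symbols. No member was at 0 in every library, and none held only multiples of 11, so none was dropped. They comprised 10 sodium channel pore subunits, 4 sodium channel beta subunits, 10 calcium channel pore subunits, 4 alpha2delta subunits, 4 calcium channel beta subunits, 8 gamma subunits and 4 HCN channels.

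The libraries were made from whole tissue of C57BL/6J mice at postnatal day 24, in 4 groups of 3 libraries. These were lesioned striatum, control striatum, lesioned prefrontal cortex and control prefrontal cortex. The lesioned groups, labelled ADHD for attention-deficit/hyperactivity disorder, came from a postnatal model made with 6-hydroxydopamine (6-OHDA), a toxin taken up by dopamine neurons that kills them. The labels give no transgene or further allele in any group, and the sources used here do not give the toxin's dose, route or day or the treatment of the controls. The labels do not tie libraries to animals, so the 3 libraries of a group may share a source, and a p-value here measures only how far libraries differ, which may be technical.

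Voltage-gated sodium channels open on depolarisation and carry the rising phase of the action potential; each has 1 large pore-forming subunit and smaller beta subunits that set its gating and its place in the membrane. Voltage-gated calcium channels turn depolarisation into calcium entry for transmitter release, dendritic excitation and gene regulation, and their alpha2delta and beta subunits carry the pore to the membrane and tune it. HCN channels open on hyperpolarisation, are modulated by cyclic AMP and help set resting potential and rhythm. In the striatum, dopamine acts on spiny projection neurons whose excitability rests in part on these channels, and in the cortex pyramidal cells and interneurons use different sets of them.

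Start-site windows are shown for the 3 genes with a motif match among the genes higher in lesioned prefrontal cortex, and for Scn4b, the gene with the greatest fitted change in lesioned striatum. Each line gives the 250 bases before the start in the RefSeq table for GRCm38.p6, from 5′ to 3′ on the gene's strand, and capitals mark a match on either strand to the GC box GGGCGG, to the CCAAT box or to the TATA box, TATAAA. The windows lie at chr9:45138374-45138623 on the plus strand for Scn4b, and on the minus strand at chr2:24763153-24763402 for Cacna1b, chr14:30491157-30491406 for Cacna1d and chr2:66440838-66441087 for Scn1a. The GENCODE annotation used below starts Scn4b further upstream than the RefSeq table, so most of the Scn4b window lies inside the gene as GENCODE places it.
Scn4b: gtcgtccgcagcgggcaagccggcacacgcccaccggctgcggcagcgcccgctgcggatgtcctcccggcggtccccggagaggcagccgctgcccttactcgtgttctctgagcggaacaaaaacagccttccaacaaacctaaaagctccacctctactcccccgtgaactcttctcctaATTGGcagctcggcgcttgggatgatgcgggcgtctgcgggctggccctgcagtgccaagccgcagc
Cacna1b: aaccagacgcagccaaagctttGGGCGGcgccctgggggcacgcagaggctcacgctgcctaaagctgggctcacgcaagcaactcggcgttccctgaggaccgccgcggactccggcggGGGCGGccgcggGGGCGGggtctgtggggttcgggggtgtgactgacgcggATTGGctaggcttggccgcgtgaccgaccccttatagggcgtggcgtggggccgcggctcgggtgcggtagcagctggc
Cacna1d: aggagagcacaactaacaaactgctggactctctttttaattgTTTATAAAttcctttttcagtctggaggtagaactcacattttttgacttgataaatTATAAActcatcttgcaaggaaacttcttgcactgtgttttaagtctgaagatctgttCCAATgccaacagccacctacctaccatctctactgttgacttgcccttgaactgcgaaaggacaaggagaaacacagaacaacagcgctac
Scn1a: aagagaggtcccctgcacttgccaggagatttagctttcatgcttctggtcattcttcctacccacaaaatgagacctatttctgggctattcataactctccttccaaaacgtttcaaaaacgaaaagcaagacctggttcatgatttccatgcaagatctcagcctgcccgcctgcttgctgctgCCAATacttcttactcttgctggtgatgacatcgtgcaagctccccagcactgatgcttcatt
Cacna1b held 3 GC boxes and 1 CCAAT box in a stretch of 72.0% GC, whereas Cacna1d held 1 CCAAT box and 3 TATA boxes, of which a pair on opposite strands overlap, in a stretch of 39.6% GC. Scn1a and Scn4b held 1 CCAAT box each. For Cacna1d, which has 2 windows in the table, the first listed is shown. Its windows also held a GC box, outside the stretch shown. Of the 44 members, 32 had 43 windows of 300 bases (250 before the start and 50 after), and 5 of the 8 genes higher in lesioned prefrontal cortex had one. The GC box stood in 18 of the 43 member windows and in 35.7% of all 32851 windows of the table, the CCAAT box in 10 of 43 and 37.4%, and the TATA box in 2 of 43 and 13.6%. These matches describe letters and are no measure of binding.

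Per-library totals ran from 15078631 to 20925452 counts, and the members held between 0.528% and 0.835% of them, the highest share in lesioned striatal library 1. A floor of 3 counts corresponded to 0.143 to 0.199 CPM, the count divided by the library total and scaled as its name says; it covers counting error only. The biological coefficient of variation between replicates was 5.78% in the prefrontal fit and 14.9% in the striatal fit. Markers of striatal projection neurons (15 genes) summed to 12860, 5864 and 8181 CPM in lesioned striatum and 4354, 3018 and 4634 CPM in control striatum, against 930.3 to 1645 CPM in prefrontal cortex, so each tissue label matched this list. Striatal libraries also carried markers of other tissue. Hypothalamic and septal markers (10 genes) summed to 368.7, 1083 and 996.7 CPM in lesioned striatum and 1231, 690.9 and 1008 CPM in control striatum, but to no more than 90.32 CPM in any prefrontal library. Choroid plexus and ependymal markers reached 2257 CPM in control striatal library 2 and at most 118.1 CPM in the other striatal libraries, and the same library had the highest sum of cortical excitatory neuron markers in striatum, 1660 CPM. Lesioned striatal library 1 and control striatal library 2 therefore stood apart, and values of members named below that rest on striatal libraries are also given without both where leaving them out ended a call, turned a direction or moved a value by more than 1.5 times.

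Among the pore subunits of sodium channels in prefrontal cortex, the 3 known as the main ones of adult brain were at the highest levels. Per kb of exon, Scn2a, the channel of the proximal axon and of unmyelinated axons, averaged 45.7 ± 1.76 CPM in lesioned and 39.6 ± 3.11 CPM in control libraries (SD, n = 3 each). Scn8a, which lies at the axon initial segment and the nodes of Ranvier, averaged 36.9 ± 0.790 and 29.9 ± 0.966 CPM per kb in lesioned and control libraries. Scn1a, the main channel of fast-spiking interneurons, averaged 21.7 ± 0.298 in lesioned and 18.4 ± 0.872 CPM per kb in control libraries. Scn3a, a channel prominent before birth, stood at 5.14 and 5.66 CPM per kb in lesioned and control cortex. Among the highest per kb in lesioned and control cortex were Cacnb3 (77.4 and 74.5 CPM per kb), Cacng7 (77.3 and 73.6), Scn2b (73.8 and 68.3) and Cacng3 (52.5 and 56.0), of which Cacnb3 and Cacng7 lay within their spread of each other.

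At the other end were genes known mainly outside the brain. Scn4a, the skeletal muscle channel, had 0 to 2 counts in any of the 12 libraries, and Cacna1f, known from retinal photoreceptors, had 0 to 6. Scn11a and Scn10a, channels of pain-sensing neurons, had at most 4 and 11 counts in prefrontal libraries, and Cacng1, a skeletal muscle subunit, had at most 3. These 5 did not pass the filter on low counts in prefrontal cortex, so 39 of the 44 members were tested there. In striatum 40 were tested, with Scn4a, Cacna1f, Cacng1 and Cacng6 left out. Cacng1 reached 26, 10 and 11 counts in lesioned striatum against 9, 1 and 6 in control striatum, too few to enter the test.

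In prefrontal cortex the lesion went with higher levels of 8 channel genes. The 7 described here were the sodium channel pores Scn8a and Scn1a and the calcium channel pores Cacna1a, Cacna1b, Cacna1d, Cacna1e and Cacna1g, which were 1.18- to 1.25-fold higher. Members were called by edgeR's quasi-likelihood test at a Benjamini-Hochberg adjusted p below 0.05 over 14018 genes. Of 39 members tested, 8 (20.5%) were called, all higher, against 5.73% of all genes tested, and 3.45% of all genes were called higher. The median log2 fold change, lesioned over control, was 0.06 over the members tested and -0.01 over all genes tested; since the list was chosen, these counts describe it and test nothing. In bulk tissue, more cells of a type and more RNA per cell cannot be told apart.

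Scn8a read 590.4, 586.5 and 567.1 CPM in lesioned and 457.5, 487.4 and 467.5 CPM in control cortex, means of 581.4 ± 12.5 and 470.8 ± 15.2 CPM. The groups did not overlap, and the gap between them was wider than the range of either group. The log2 fold change was 0.31 (SE 0.045, adjusted p = 0.00199), the smallest adjusted p among the members. Scn1a read 245.1, 239.2 and 239.7 CPM in lesioned and 193.7, 211.8 and 208.9 CPM in control cortex, with no overlap and a log2 difference of 0.24 (SE 0.049, adjusted p = 0.0114). Scn2a read 557.7, 584.5 and 602.2 CPM in lesioned and 492.0, 548.1 and 471.7 CPM in control cortex. Its groups did not overlap either, but control library 2 lay close to the lesioned libraries, and the value of 0.21 (SE 0.061) did not pass (adjusted p = 0.0613). Scn3a, at -0.13, did not pass (adjusted p = 0.228), and neither did Scn7a or Scn9a, both below 10 CPM in prefrontal cortex. In sum the sodium channel pores came to 1473, 1487 and 1477 CPM in lesioned and 1226, 1331 and 1229 CPM in control cortex.

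The sodium channel beta subunits are cell-adhesion proteins beside the pore. Scn2b (0.12), Scn3b (0.02) and Scn4b (0.04) did not pass in prefrontal cortex. Scn4b varied more between libraries than Scn2b or Scn3b, at 145.0, 94.55 and 125.6 CPM in lesioned and 74.41, 112.3 and 174.3 CPM in control libraries, so that the control group enclosed the lesioned one. The projection-neuron markers of the same libraries summed to 1159, 930.3 and 1090 CPM and to 987.1, 1228 and 1645 CPM, in the same order within each group; their part in the Scn4b values was not tested.

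Among calcium channel pores, 5 of 9 tested members were called, all higher. Of all genes tested 3.45% were called higher, and of those with more than 8 kb of exon 8.77% were. Cacna1a, the P/Q-type pore that triggers release at most central synapses, read 279.3, 284.4 and 264.5 CPM in lesioned and 232.6, 231.2 and 240.9 CPM in control cortex. Its partner at terminals, the N-type pore Cacna1b, read 222.8, 215.3 and 205.0 CPM in lesioned and 180.5, 172.3 and 181.6 CPM in control cortex. Cacna1e, the R-type pore, read 413.3, 418.0 and 407.7 CPM in lesioned and 342.6, 347.4 and 351.6 CPM in control cortex. None of the 3 had a control library as high as its lowest lesioned library. The log2 fold changes were 0.24 (SE 0.045, adjusted p = 0.00807) for Cacna1a, 0.27 (SE 0.046, adjusted p = 0.00467) for Cacna1b and 0.26 (SE 0.041, adjusted p = 0.00338) for Cacna1e.

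The L-type and T-type pores were split. Cacna1d, an L-type pore that opens at more negative potentials than its relative Cacna1c, read 91.31, 92.95 and 90.85 CPM in lesioned and 79.85, 71.29 and 72.75 CPM in control cortex. Its log2 fold change was 0.30 (SE 0.055, adjusted p = 0.00732), whereas Cacna1c, the most common L-type pore of the brain, was at 0.04 (SE 0.052, adjusted p = 0.713), with 115.2, 123.1 and 111.9 CPM in lesioned and 112.6, 110.6 and 119.0 CPM in control cortex. The Cacna1c groups overlapped and the Cacna1d groups did not. Of the T-type pores, which carry low-threshold bursts, Cacna1g read 135.6, 129.1 and 128.8 CPM in lesioned and 114.2, 95.21 and 106.0 CPM in control cortex and was called at 0.33 (SE 0.060, adjusted p = 0.00739). Cacna1i (0.15, adjusted p = 0.0850) and Cacna1h (-0.04, adjusted p = 0.840) did not pass. That one relative was called and the other not is no test of a difference between them.

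The auxiliary subunits of calcium channels gave no call in prefrontal cortex, and nor did Hcn2. None of the 4 alpha2delta subunits passed (Cacna2d1 at 0.14, Cacna2d2 at 0.15, Cacna2d3 at -0.02 and Cacna2d4 at -0.22). The 4 beta subunits lay between -0.10 (Cacnb2) and 0.07 (Cacnb4), and Cacnb1 and Cacnb3 were at -0.0014 and 0.06. Of the 7 gamma subunits tested, which include the transmembrane AMPA receptor regulatory proteins (TARPs) Cacng2, Cacng3, Cacng4, Cacng5, Cacng7 and Cacng8, the smallest adjusted p was that of Cacng4, at 0.0690 with a log2 fold change of -0.22. Cacng4 read 45.13, 40.37 and 41.15 CPM in lesioned and 47.84, 47.00 and 53.72 CPM in control cortex, so its groups did not overlap. Hcn2, the most abundant HCN channel here, was at 0.14 (adjusted p = 0.116), with 131.7, 137.0 and 129.3 CPM in lesioned and 122.0, 115.3 and 125.7 CPM in control cortex.

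**Figure D1:**
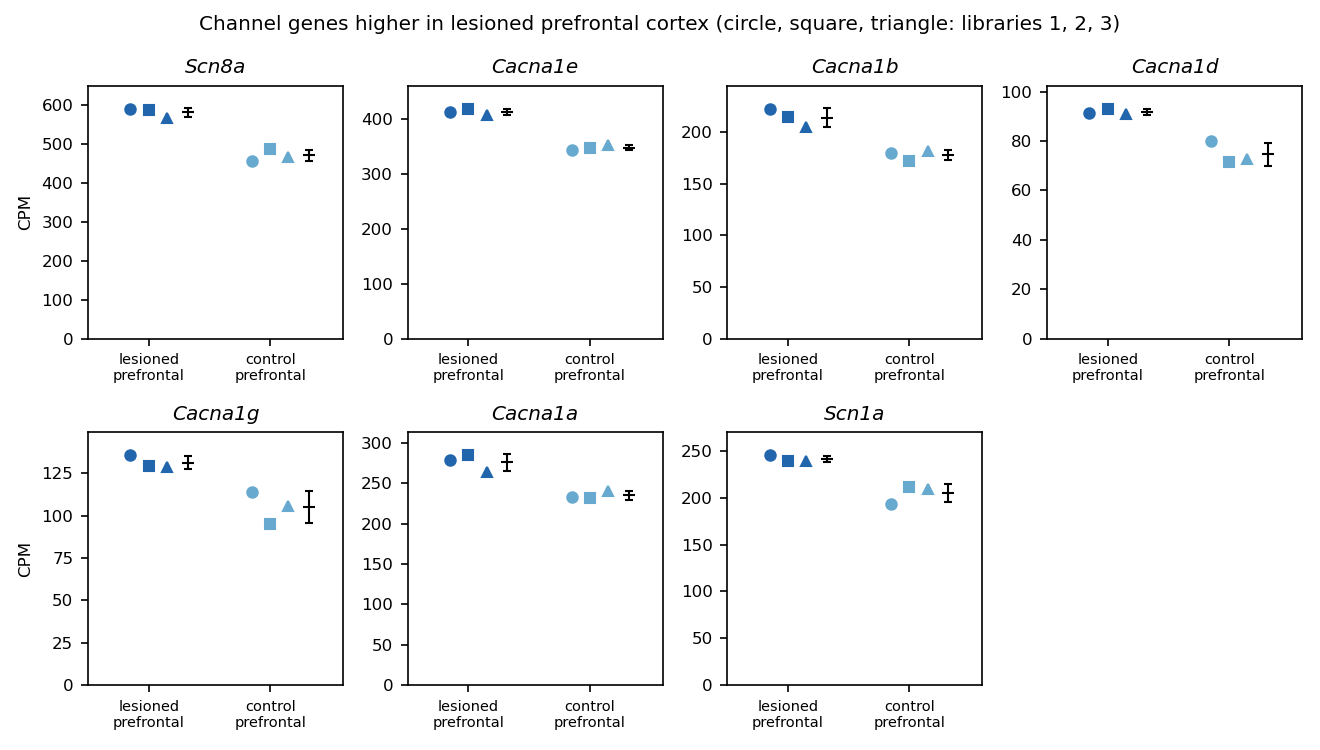
CPM of 7 called channel genes in the 3 lesioned (left) and 3 control (right) prefrontal libraries, with the mean and SD beside the points; each y axis starts at 0. In every panel the lesioned libraries lie above the control libraries, for Scn8a at 567.1 to 590.4 against 457.5 to 487.4 CPM.

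Some genes of channel partners were also called in prefrontal cortex, where 5.73% of all genes tested were. Among 17 genes for sodium channel partners, Ank3 (0.21, adjusted p = 0.0190), which anchors sodium channels at the axon initial segment, and Cntn2 (0.29, adjusted p = 0.00734), an axonal adhesion protein, were higher, and none was lower. Among 19 tested calcium channel partners, Stac2 (0.21, adjusted p = 0.0295), an adaptor of L-type pores, and Snap25 (0.17, adjusted p = 0.0481), a release protein that binds presynaptic pores, were higher. Of 8 tested HCN partners only Adcy1 (0.24, adjusted p = 0.0236), a calcium-stimulated adenylyl cyclase, was called. In the complex of the NALCN sodium leak channel Unc80 was higher (0.29, adjusted p = 0.00308), 1 of 5 tested. Among 12 AMPA receptor genes apart from the TARPs, the receptor subunit Gria4 was higher (0.20, adjusted p = 0.0453) and the auxiliary protein Cnih2 was lower (-0.35, adjusted p = 0.00145).

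Markers of other cells and gene length moved with the prefrontal result. Astrocyte markers (9 genes) summed to 5558, 5689 and 5554 CPM in lesioned and 6286, 6388 and 6268 CPM in control cortex, and 5 of the 9 (Aqp4, Slc1a3, Slc1a2, Fgfr3 and Sox9) were called lower; none was at 0. Also lower were 2 of 8 markers of oligodendrocyte precursors, 2 of 7 of immature neurons and 2 of 8 of endothelial and mural cells. The mature oligodendrocyte marker Mbp and the microglia marker Cx3cr1 were called lower too. Of all 14018 genes tested, 319 were called lower. Among 12 cortical excitatory markers Neurod2 was higher and Nrgn lower, and of 10 interneuron markers Kcnc1 was higher. The sum of the cortical excitatory markers was 4139 to 4348 CPM in lesioned and 4636 to 4677 CPM in control cortex. That of the interneuron markers was 1251 to 1271 CPM in lesioned and 1162 to 1233 CPM in control cortex. Sums weigh abundant genes most. As mean log2 CPM with TMM factors, the excitatory markers were at 6.948, 6.991 and 7.003 in lesioned and 6.875, 6.994 and 6.918 in control cortex. The interneuron markers were at 6.318, 6.436 and 6.408 in lesioned and 6.502, 6.307 and 6.333 in control cortex. By these means the groups overlapped for both marker lists. Their part in the channel result was not tested.

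Of all tested genes with more than 8 kb of exon, 8.77% were called higher, with a median log2 fold change of 0.04 (2633 genes), against 1.05% and -0.05 for genes under 2 kb (1525 genes). Of the 20 tested members over 8 kb, 7 were called, and their median was 0.14. After a per-library correction for GC content and length, 7 of the 8 stayed called (5.68% of all genes were called), with values from 0.19 (Cacna1a) to 0.28 (Cacna1g) among those described, and Cacna1e did not (0.12, adjusted p = 0.0836). In a fit of all 12 libraries with 1 shared spread, none of the 8 was called (adjusted p from 0.135 for Cacna1b to 0.544 for Cacna1g), although their log2 fold changes stayed at 0.25 to 0.34. That fit called 0.206% of all genes for the prefrontal comparison, so few calls of any kind remained. The Scn1a call was lost on leaving out any 1 lesioned library (adjusted p from 0.0550 to 0.0657). It was the sole member lost without library 1 (2.42% of all genes called) or library 3 (2.19%). Without lesioned prefrontal library 2 (1.38% of all genes called), 5 members were called, with Cacna1a and Cacna1d lost as well. Without control prefrontal library 2 (7.14% of all genes called), 12 were, with Scn2a, Scn2b, Cacna1i and Cacna2d1 added.

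In striatum no member was called, although Scn4b differed most between the groups in fitted size. By edgeR's quasi-likelihood test 0 of 40 members had an adjusted p below 0.05, against 0.028% of all 14288 genes tested. Unadjusted, 9 of the 40 members and 2475 of the 14288 genes were below 0.05. DESeq2 called 2 of the 40, against 3.7% of all genes. The limma-voom fit called 0 members and 0 of all genes. The median log2 fold change, lesioned over control, was 0.13 over the members and -0.0041 over all genes tested.

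Scn4b, a beta subunit that is strong in striatal projection neurons and takes part in the resurgent sodium current, read 2259, 750.2 and 1109 CPM in lesioned and 414.1, 251.3 and 539.4 CPM in control striatum. Every lesioned library lay above every control library, and lesioned library 1 was far above the rest. The means were 1373 ± 788.5 and 401.6 ± 144.4 CPM, and the log2 fold change was 1.86 (SE 0.47, adjusted p = 0.181). Without lesioned library 1 and control library 2 it was 0.99 (adjusted p = 0.0866, 2 libraries against 2). The projection-neuron markers rank the 6 libraries in the same order as Scn4b does: lesioned library 1 is highest, then lesioned libraries 3 and 2, then control libraries 3, 1 and 2. All 15 of these markers had a log2 fold change above 0, with a median of 1.26, and none was called; their part in the Scn4b value was not tested.

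The share of Scn4b among the beta subunits did not pass a test either. It took 66.7%, 42.5% and 51.0% of their summed level per kb in lesioned and 30.3%, 18.0% and 34.6% in control striatum, means of 53.4 ± 12.3% and 27.6 ± 8.59%. The 2 groups did not overlap. Without lesioned library 1 and control library 2 the means were 46.8% in lesioned and 32.4% in control striatum. In prefrontal cortex Scn4b took 7.43% in lesioned and 8.36% in control libraries. The lowest p that an exact two-sided permutation test can give with 3 against 3 libraries is 0.1. Of 88 shares tested, 30 reached it, among them that of Scn4b in striatum, and the smallest adjusted p was 0.293, so no share passed.

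Further members in striatum were also highest in lesioned library 1. Cacna2d3, an alpha2delta subunit, read 346.9, 175.6 and 223.9 CPM in lesioned and 151.0, 139.6 and 153.2 CPM in control striatum, with no overlap (0.83, SE 0.26, adjusted p = 0.211). Cacna1i, the slowest of the T-type pores, read 219.8, 133.2 and 157.9 CPM in lesioned and 106.8, 115.7 and 115.1 CPM in control striatum, again with no overlap (0.67, SE 0.20, adjusted p = 0.209). In both genes lesioned library 1 was well above the others, and without it and control library 2 the values were 0.42 for Cacna2d3 (adjusted p = 0.169) and 0.42 for Cacna1i (adjusted p = 0.135). DESeq2 called both (adjusted p = 0.0393 for Cacna2d3 and 0.0480 for Cacna1i). The fit of all 12 libraries called 4 of 41 members, against 7.15% of all genes in that fit, namely Scn4b (adjusted p = 0.0296), Cacna1i (0.0315), Cacna2d3 (0.0341) and Hcn2 (0.0412).

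Hcn2 read 164.0, 175.0 and 155.5 CPM in lesioned and 142.5, 118.0 and 151.9 CPM in control striatum, a log2 difference of 0.32 (SE 0.11, adjusted p = 0.222). By these CPM, which use no TMM factors, lesioned library 2 was the highest, whereas the share of Hcn2 in its family was highest in lesioned library 1 (86.2%). The groups did not overlap, but the difference did not pass, and without lesioned library 1 and control library 2 it was 0.19 (adjusted p = 0.333). In its family Hcn2 took 81.7 ± 4.17% in lesioned and 74.2 ± 0.419% in control striatum. Scn2a read 478.4, 408.8 and 460.0 CPM in lesioned and 392.9, 367.1 and 393.8 CPM in control striatum (0.29, SE 0.11, adjusted p = 0.245). Scn2b, a beta subunit that is linked to the pore by a disulfide bond, read 474.2, 410.4 and 446.0 CPM in lesioned and 391.5, 325.3 and 401.9 CPM in control striatum (0.32, SE 0.12, adjusted p = 0.256). For both genes the gap between the groups was smaller than the range within the control group. Without the same 2 libraries the values were 0.17 for Scn2a (adjusted p = 0.410) and 0.14 for Scn2b (adjusted p = 0.471).

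None of the 7 genes described as higher in prefrontal cortex was called in striatum. Cacna1e was at 0.40 (SE 0.16, adjusted p = 0.279), Cacna1d at 0.18 (adjusted p = 0.484) and Cacna1b at 0.11 (adjusted p = 0.520). Scn1a was at -0.02 (SE 0.096, adjusted p = 0.946), Cacna1a at 0.02 (SE 0.10, adjusted p = 0.923) and Scn8a at 0.26 (SE 0.16, adjusted p = 0.423). Without the 2 libraries that stood apart, Cacna1b was at 0.07, Scn1a at -0.08 and Cacna1a at -0.0014. Cacna1g read 43.95, 91.14 and 89.36 CPM in lesioned and 110.4, 93.06 and 108.2 CPM in control striatum, each lesioned library below each control (-0.43, SE 0.23, adjusted p = 0.372), and was at -0.25 (adjusted p = 0.177) without those 2 libraries. Thalamic markers (8 genes) summed to 189.0, 306.3 and 276.1 CPM in lesioned and 332.1, 275.4 and 321.7 CPM in control striatum, lowest in the library with the lowest Cacna1g and highest in the 2 with the highest. None of the 8 was called; their part in the Cacna1g value was not tested. The uncalled L-type pore Cacna1c was at 0.39 (SE 0.25, adjusted p = 0.452), with 188.6, 105.3 and 145.5 CPM in lesioned and 102.7, 146.7 and 103.7 CPM in control striatum, which overlapped.

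Lesioned striatal library 1 was the highest of the 6 striatal libraries for 18 of the 40 tested members and the lowest for 12. Over all tested genes it was the highest for 16.8% and the lowest for 44.7%. Among the 12 members at their lowest there were Scn9a, Cacng5, Cacna2d2, Hcn3 and Cacna1g. Scn9a read 14.85, 26.36 and 27.93 CPM in lesioned and 31.27, 19.73 and 24.54 CPM in control striatum, and Cacng5 16.04, 34.39 and 40.93 CPM in lesioned and 53.34, 33.99 and 43.44 CPM in control striatum. Both were lowest in the library with the lowest hypothalamic and septal marker sum (368.7 CPM) and highest in the one with the highest (1231 CPM); the part of that tissue in these values was not tested.

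**Figure D2:**
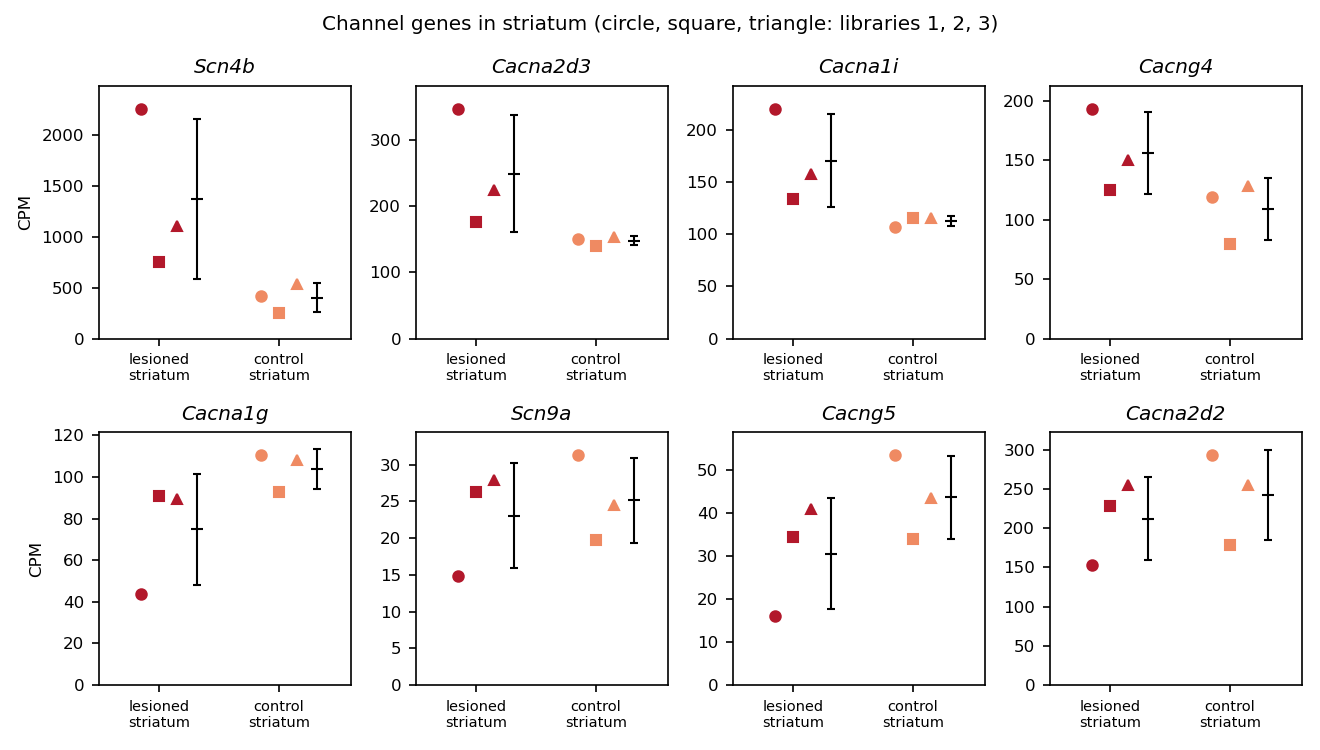
CPM of 8 channel genes in the 3 lesioned (left) and 3 control (right) striatal libraries, with mean and SD beside the points; circle, square and triangle stand for libraries 1, 2 and 3. Lesioned library 1 is the highest point for Scn4b (2259 CPM), Cacna2d3, Cacna1i and Cacng4 and the lowest for Cacna1g, Scn9a (14.85 CPM), Cacng5 and Cacna2d2.

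None of the channel partners was called in striatum by edgeR (0 of 17 sodium channel, 0 of 19 calcium channel and 0 of 8 HCN partners). Their median log2 fold changes were 0.14, 0.04 and 0.19. Rem2, a small GTPase that restrains calcium channels, was at 1.08 (adjusted p = 0.178), and Gem, its relative, at -0.93 (adjusted p = 0.169). These partners are named for their size, after their values were seen, and neither passed.

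A test of the lesion effect in striatum minus that in prefrontal cortex, over all 12 libraries, called 0 of 41 members by edgeR, against 0.0825% of all 14545 genes tested. Unadjusted, 10 members and 1703 of the 14545 genes were below 0.05. DESeq2 and limma-voom called 0 members each, against 116 and 2 of all genes. The 4 members with the smallest p were Scn4b (a difference of 1.83 on the log2 scale, SE 0.59, adjusted p = 0.322), Cacng4 (0.80, SE 0.27, adjusted p = 0.329), Cacna2d3 (0.84, SE 0.29, adjusted p = 0.329) and Cacna1g (-0.76, SE 0.26, adjusted p = 0.330). So the lesion effects on the members were not shown to differ between the regions. Without lesioned striatal library 1 and control striatal library 2, Scn4b was at 0.96, Cacng4 at 0.40 and Cacna2d3 at 0.44, none called, and Cacna1g passed (-0.57, adjusted p = 0.0132; 0.69% of all genes called). Without lesioned striatal library 2, Cacna2d3 did (1.06, adjusted p = 0.0438; 1.17% of all genes called).

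**Figure D3:**
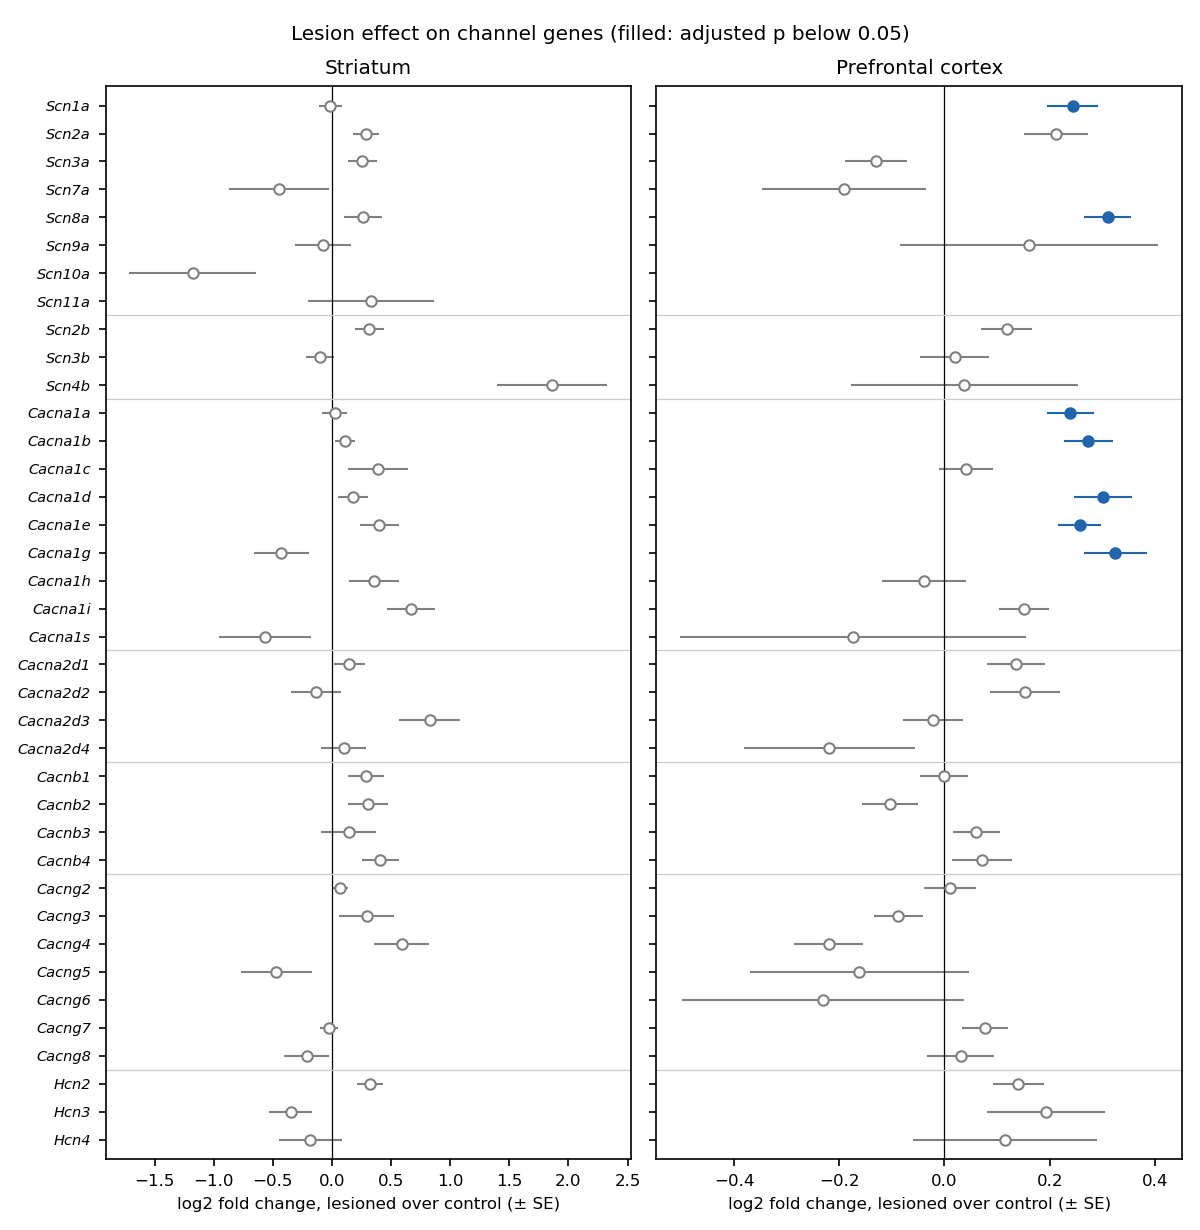
log2 fold change, lesioned over control, with its SE for the tested members described, in striatum (left) and prefrontal cortex (right), on axes of different width; filled points have an adjusted p below 0.05. The 7 filled points are all in prefrontal cortex and lie between 0.24 and 0.33, whereas Scn4b in striatum lies at 1.86 and is not filled.

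The regions differed in most channel genes, in lesioned and in control mice. Among lesioned libraries 31 of 39 tested members were called between striatum and prefrontal cortex (15 higher and 16 lower in striatum), against 45.2% of all genes tested (22.7% higher and 22.5% lower). Among control libraries 30 of 40 were called (15 higher, 15 lower), against 42.3% of all genes tested (21.3% higher and 21% lower). The 2 comparisons share no library. Of 39 members tested in both, 25 were called in both, 12 higher and 13 lower in striatum, and each in the same direction in both. Called in the lesioned and not in the control libraries were Cacna1d, Cacna1g, Cacna2d3, Hcn2, Scn1a and Scn2b, and in the control and not in the lesioned libraries Cacna1e, Cacna1i, Cacna1s, Cacnb1 and Hcn3; the test of the lesion effect between regions, which also compares these regional differences, called none of them. Without the 2 libraries that stood apart, 36 of 41 members were called in lesioned mice (53.6% of all genes) and 34 of 41 in control mice (47.4%). In these edgeR fits Cacna1e lost its call in control mice (0.15, adjusted p = 0.0566). Cacna1i (-0.58, adjusted p = 8.255e-05) and Cacnb1 (-0.45, adjusted p = 0.000543) were then called in lesioned mice too. Cacna2d3 (0.22, adjusted p = 0.0204) and Scn2b (0.16, adjusted p = 0.0487) were then called in control mice too.

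Scn9a, a channel of peripheral and hypothalamic neurons, differed by a log2 fold change, striatum over prefrontal cortex, of 3.23 (adjusted p = 0.000114) in lesioned and 3.47 (adjusted p = 1.57e-05) in control mice. It read 14.85, 26.36 and 27.93 CPM in lesioned striatum against 2.808, 2.395 and 1.541 CPM in lesioned prefrontal cortex, and 31.27, 19.73 and 24.54 CPM in control striatum against 2.103, 2.169 and 1.791 CPM in control prefrontal cortex. Every striatal library lay above every prefrontal one. The alpha2delta subunit Cacna2d2 differed by 2.10 and 2.39 and the TARP Cacng5 by 1.45 and 1.77, lesioned first. Hypothalamic and septal markers, all 9 or 10 of them called higher in striatum, moved with these genes; their part was not tested. Without the 2 libraries that stood apart, the values of Scn9a were 3.43 in lesioned and 3.62 in control mice.

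Scn4b was higher in striatum by 3.42 in lesioned (SE 0.43, adjusted p = 0.000645) and by 1.59 in control mice (SE 0.34, adjusted p = 0.00653). By level per kb it was the first of the 44 members in lesioned striatum, at 275.5 ± 158.3 CPM per kb, whereas in control striatum, at 80.6 ± 29.0, it lay within its spread of Scn2b (80.1 per kb), so the order of these genes there is not resolved. Without the 2 libraries that stood apart, the regional values of Scn4b were 2.79 in lesioned and 1.84 in control mice.

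Lower in striatum were Cacnb3, a cytoplasmic calcium channel beta subunit (-1.43 in lesioned and -1.51 in control mice), Cacng3, a TARP of the forebrain (-0.95 and -1.32), Cacna2d1, an alpha2delta subunit that binds gabapentin (-1.32 and -1.32) and Cacnb4 (-0.58 and -0.91). All 4 passed in both comparisons, with adjusted p from 1.85e-05 (Cacng3, control mice) to 0.0117 (Cacnb4, lesioned mice). Cacnb3 read 152.6, 102.3 and 113.5 CPM in lesioned striatum against 304.9, 322.7 and 303.3 CPM in lesioned prefrontal cortex, and 91.36, 149.2 and 109.7 CPM in control striatum against 305.2, 285.3 and 306.1 CPM in control prefrontal cortex. Its highest control striatal value fell in the library with the most cortical excitatory markers.

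**Figure D4:**
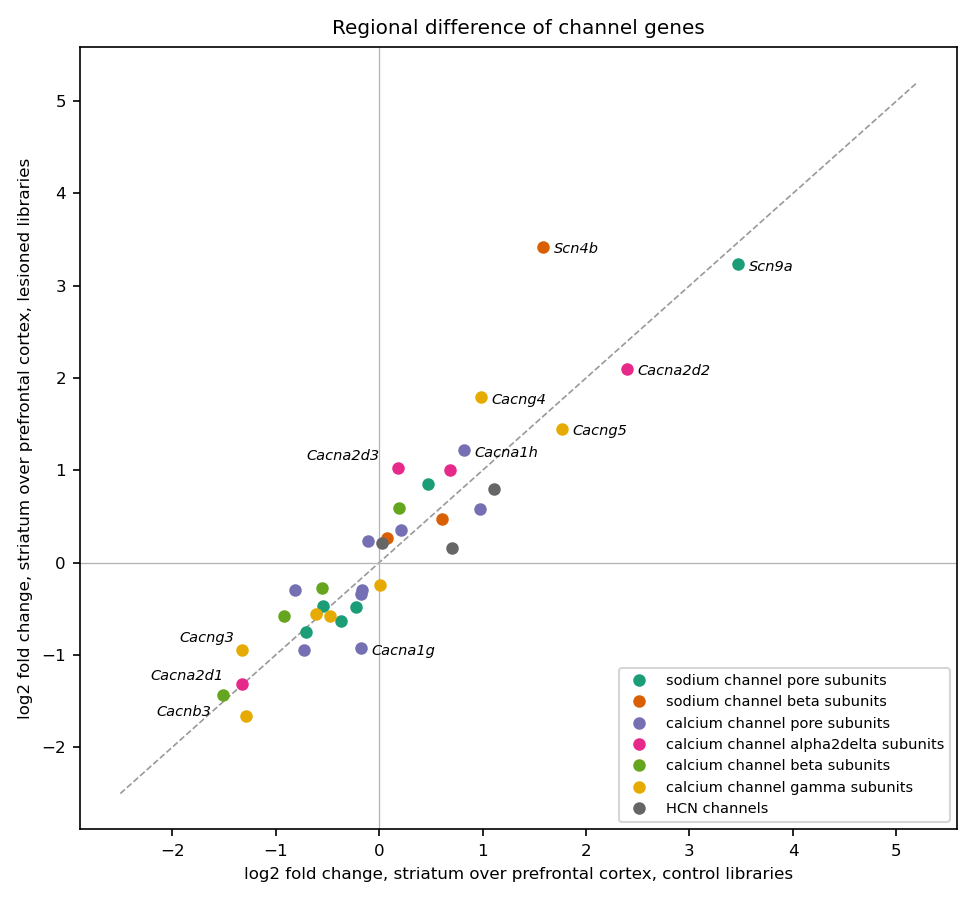
log2 fold change, striatum over prefrontal cortex, of the members described that were tested in both comparisons, in control libraries (x axis) and lesioned libraries (y axis), coloured by family; the dashed line marks equal values. Scn9a (3.23 in lesioned, 3.47 in controls) lies at the upper right, and Scn4b (3.42 in lesioned, 1.59 in controls) lies farthest above the line.

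Among the neighbouring genes described here, those on chromosome 2 took opposite directions between the regions. The pairs given on chromosomes 9, 11 and 7 each had values of the same sign. On chromosome 2 of mm10, Scn3a (chr2:65457118-65567627), Scn2a (chr2:65620771-65767447), Scn1a (chr2:66270778-66440840) and Scn9a (chr2:66480080-66634962) lie in 1 row, in the GENCODE annotation. In lesioned mice Scn3a (0.85) and Scn9a (3.23) were higher in striatum, and Scn2a (-0.47) and Scn1a (-0.48) were lower; in controls the values were 0.47, 3.47, -0.54 and -0.22, of which that of Scn1a did not pass (adjusted p = 0.0783). On chromosome 9 Scn2b (chr9:45117782-45130070) and Scn4b (chr9:45138395-45154152), on the same strand, were 0.27 and 3.42 higher in striatum in lesioned and 0.08 and 1.59 in control mice, of which the Scn2b value in controls did not pass (adjusted p = 0.529). Without the 2 libraries that stood apart, Scn2b was at 0.17 in lesioned (adjusted p = 0.0271) and 0.16 in control mice (adjusted p = 0.0487), and Scn1a in control mice was at -0.13 (adjusted p = 0.113). On chromosome 11 Cacng4 (chr11:107732357-107794557) and Cacng5 (chr11:107874605-107915055) were both higher in striatum, whereas on chromosome 7 Cacng6 (chr7:3424195-3435667) and Cacng7 (chr7:3332955-3368221) were both lower, at -1.66 and -0.58 in lesioned and -1.28 and -0.48 in control mice. The gamma subunit Cacng8, not part of this pair, did not pass, at -0.24 in lesioned (adjusted p = 0.141) and 0.0071 in control mice (adjusted p = 0.975). Without the 2 libraries that stood apart, Cacng8 was at -0.34 in lesioned (adjusted p = 0.0163) and -0.21 in control mice (adjusted p = 0.0326).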

How the data were processed

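Messenger RNA of prefrontal cortex and striatum was sequenced as stranded, paired libraries, per the labels' protocols. The authors deposited raw counts by symbol, with no normalised values. The submitters' processing notes name STAR 2.7.1a, featureCounts and mm10. Which annotation and strand setting were used, and how multi-mapped reads were counted, were not given in the sources used here; counts of exons shared between strands are therefore uncertain. Among the members these are Cacna1d with Chdh (at most 131 counts) and Hcn3 with Pklr (at most 7). Of 21872 symbols, 3732 were at 0 in every library and 1830 held only multiples of 11 (0.144% of counts); both were left out.

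Counts were tested in R 4.3.3 with edgeR 4.0.16 (TMM factors, filterByExpr, quasi-likelihood test, two-sided, Benjamini-Hochberg adjustment over all genes tested, calls at adjusted p below 0.05). Each comparison was fitted on its 6 libraries (4 residual degrees of freedom), and the difference between regions on all 12. DESeq2 1.42.0, limma 3.58.1 (voom), other factors and filters, a GC and length correction (mgcv 1.9.3) and leaving out libraries were alternatives. Shares were tested by exact permutation (SciPy 1.17.1). CPM are per library total, and per-kb levels use the summed exon length of GENCODE M21. Scripts were tested on simulated counts. Same-numbered striatal and prefrontal libraries of the same condition correlated at -0.005 to 0.092. Control striatal libraries 1 and 3 and lesioned striatal libraries 1 and 2 correlated most with the prefrontal library of their own number. Same-numbered lesioned and control libraries of a region correlated at -0.112 to 0.032. Numbers were not taken as pairs in the main fits, but with 3 libraries a group these values cannot show that pairing is absent.

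Genes named in detail are every member called in a lesion comparison (or the 6 with the smallest p), the 5 called members with the largest regional change each way above 10 CPM in controls, the 4 with the smallest p for the difference between regions, and Scn1a, Scn2a, Scn8a, Scn4b, Cacna1a, Cacna1c and Hcn2. Some members that these rules name are not reported here. Members, lists and tests were chosen with earlier results of these data known.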

Additional observations from a re-analysis of the deposited data

Results flagged for a closer look

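Cacna1g, the T-type calcium channel pore, had values of opposite sign in the 2 regions, of which that in striatum did not pass: each lesioned striatal library lay below each control striatal library, and each lesioned prefrontal library above each control prefrontal library. The log2 fold changes, lesioned over control, were -0.43 in striatum (adjusted p = 0.372) and 0.33 in prefrontal cortex (adjusted p = 0.00739), a difference of -0.76 that did not pass (adjusted p = 0.330, all by edgeR's quasi-likelihood test over all genes). Lesioned striatal library 1, at 43.95 CPM, held the lowest value and the lowest sum of thalamic markers in striatum (189.0 CPM); their part was not tested. Without it and control striatal library 2 the difference was -0.57 (adjusted p = 0.0132). With 3 libraries a group, no single library was tested for lying apart.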

How the results depend on the processing

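Of the values that answer a comparison, 126 stayed within limits across the alternatives and 6 did not, the limits being 1.5 times for a count and 1 SD between libraries for a share. A count of 12 against 8 lies at that limit, and shares of Scn4b in prefrontal cortex and Scn8a in striatum changed sign within it. Fitting all 12 libraries together gave 0 members called in prefrontal cortex (8 in the fit of 6 libraries) and 4 in striatum (0 in the fit of 6); the shared spread of the 12-library fit lies between those of the 2 regions. DESeq2 called 2 in striatum. Leaving out 1 library at a time gave 5 to 12 members in prefrontal cortex, 0 to 0 in striatum, 0 to 1 for the difference between regions, 27 to 36 for the regions in lesioned mice and 25 to 34 in control mice. Without lesioned striatal library 1 and control striatal library 2, 1 member was called for the difference. Leaving out 1 library moved the shares, lesioned minus control, between 19.2 and 31.3 points for Scn4b in striatum, -2.42 and 0.708 for Scn4b in prefrontal cortex, -0.257 and 3.74 for Scn8a in striatum, 1.503 and 2.26 for Scn8a in prefrontal cortex, 1.64 and 2.74 for Cacna1e in striatum, and 0.196 and 0.551 for Cacna1e in prefrontal cortex. With the replicate number as a block, 8 members were called in prefrontal cortex (634 of all 14018 genes) and 0 in striatum (0 of all 14288). The difference had 0 members called (6 of all 14545 genes). The regions had 29 members called in lesioned mice (5853 of all 14206 genes) and 27 in control mice (5590 of all 14239).

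Among the genes named, 672 values kept their direction and side of the threshold, 14 lost a call, 11 gained one and 13 reversed; the 13 were in lesion effects that were not called, and the cause was not tested. In prefrontal cortex, Cacna1c was at -0.0786 after the GC and length correction. Leaving out 1 library put Cacna1c between -0.0001 and 0.0677 and Scn4b between -0.222 and 0.385 there. In striatum, Cacna1a was at -0.0003 with upper-quartile factors, -0.0269 after the correction and -0.0014 without the 2 libraries that stood apart. Leaving out 1 library put Cacna1a between -0.0609 and 0.0849 and Scn1a between -0.0999 and 0.0433 there. With no filter on low counts no further member was called for the lesion; between the regions Scn11a was, in lesioned (adjusted p = 0.00222) and control mice (0.0464), and Cacng1 in lesioned mice (0.00378), each at 26 counts or fewer in any library.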
